A study of Mus musculus with 24 samples.

Results

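TCF7L2 had peaks in the mouse cortex late in gestation, at E18.5 (E for embryonic day), at a set of loci where neither ARID1B nor FOXP1 had one. These TCF7L2-alone loci are the peaks on chromosomes 1 to 19 of the TCF7L2 list at E18.5 that share no base with any peak of the ARID1B or FOXP1 lists at E15.5 or E18.5. Of 52595 autosomal TCF7L2 peaks at E18.5, 7273 met this rule, and 45322 did not. All 6 lists together hold 315145 peaks. The loci were chosen by measured values, namely the position of each peak and its absence from 4 other lists, so their peak strength at E18.5 and the absence of the other proteins are given as descriptions.

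The data are ChIP-seq peaks from wild-type cortex of mice on a CD1 background. Chromatin from E15.5 and E18.5 cortex was precipitated with antibodies against TCF7L2, against FOXP1, which is a factor of the forkhead family, and against ARID1B, which belongs to the BAF complex that remodels chromatin. Each transcriptional regulator (TR) and stage had 2 ChIP and 2 input libraries, 24 in all, from cortex without any treatment. There is 1 peak list per condition, so no spread between replicates is at hand to set a difference against. Each list was deposited under the first replicate of its condition and was taken here to be the call on merged replicates that the study's methods describe, which the lists themselves do not state. The study mapped further TRs in cortex, which were not analysed here, so "alone" means without ARID1B and FOXP1 only. The labels write TCF4 for the antibody that the study's methods name as TCF7L2. In whole cortex, binding in few cells and weak binding in many cells cannot be told apart.

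TCF7L2 is an HMG-box transcription factor at the end of the canonical Wnt pathway. Without a Wnt signal, it sits on DNA with corepressors of the TLE family. When a Wnt ligand engages Frizzled and LRP receptors, β-catenin accumulates, enters the nucleus, and turns the TCF into an activator of targets such as Axin2, Sp5, and Lef1. The HMG box reads a short A/T-rich element around the letters CTTTG. In the forebrain, TCF7L2 is best known from the thalamus and habenula, and Wnt signals from the cortical hem pattern the developing cortex.

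The sequences that bear most directly on TCF7L2 are those of TCF7L2-alone loci with a match to the TCF7L2 consensus of the study's motif table within 50 bp of the summit, the base of highest signal. There were 14 such loci, 2 of them at promoters and 1 with a TCF7L2 peak at E15.5. Below are 4 of the strongest, each as 121 bases of the plus strand of GRCm38 (mm10) centered on the summit and read 5′ to 3′. Capitals mark the consensus match on either strand.

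Locus near Gpatch2l (chr12:86213199-86213319): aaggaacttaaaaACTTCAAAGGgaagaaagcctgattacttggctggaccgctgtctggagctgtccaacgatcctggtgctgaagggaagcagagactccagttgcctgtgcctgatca
Locus near Gm26651 (chr13:51917265-51917385): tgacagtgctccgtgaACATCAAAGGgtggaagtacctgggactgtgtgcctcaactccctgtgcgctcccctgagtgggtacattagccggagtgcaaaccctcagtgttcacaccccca
Locus at Hapln3 (chr7:79130093-79130213): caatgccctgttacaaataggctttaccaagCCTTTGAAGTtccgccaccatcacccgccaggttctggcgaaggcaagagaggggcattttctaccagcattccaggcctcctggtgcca
Locus near Blk (chr14:63371880-63372000): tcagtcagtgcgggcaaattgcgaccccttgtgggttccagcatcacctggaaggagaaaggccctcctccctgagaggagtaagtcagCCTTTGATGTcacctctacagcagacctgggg

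In these windows, the center of the match lay 24 to 42 bases from the summit. The consensus itself fixes the letters CAAAG or CTTTG, the center of the HMG-box element, so every match holds them. The locus near Gpatch2l, a peak of 3.39-fold, and those near Gm26651 (3.28-fold) and Blk (3.06-fold) lie between genes. The locus at Hapln3, which encodes a hyaluronan-linking protein, is in an intron and within 2000 bp upstream of a start site, and it is the only 1 of the 14 with a TCF7L2 peak at E15.5. The strongest of the 14 lay 19473 bp from the start of Mbp, the myelin basic protein gene, with 3.83-fold and no ARID1B or FOXP1 peak within 18939 bp. Among the 8 strongest were also loci in introns of Tmem117 (3.17-fold), Afg1l (2.85-fold), and Wnk4 (2.85-fold). The 4 windows that follow, from stronger TCF7L2-alone loci, hold neither the consensus nor the core letters CTTTGAT. The shorter CAAAG does occur in the windows of Esr1 and Nkx3-2. Shown are the top 2 distal loci and 2 of the top 3 promoter loci, with no capitals because neither the consensus nor the core matched.

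Locus in Esr1 (chr10:4997964-4998084): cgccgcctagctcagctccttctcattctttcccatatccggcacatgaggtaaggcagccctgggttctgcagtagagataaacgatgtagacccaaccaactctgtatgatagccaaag
Locus in Khdc3 (chr9:73103696-73103816): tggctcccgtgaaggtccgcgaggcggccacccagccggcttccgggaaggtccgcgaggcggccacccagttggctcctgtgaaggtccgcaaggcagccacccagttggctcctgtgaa
Locus at Crybb1 and Cryba4 (chr5:112254337-112254457): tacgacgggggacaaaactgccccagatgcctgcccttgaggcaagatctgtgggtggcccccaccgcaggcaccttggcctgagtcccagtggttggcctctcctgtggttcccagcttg
Locus at Nkx3-2 (chr5:41765631-41765751): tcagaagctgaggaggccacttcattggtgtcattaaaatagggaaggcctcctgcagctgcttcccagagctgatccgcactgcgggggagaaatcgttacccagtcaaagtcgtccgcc

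The Khdc3 window repeats itself. When it was shifted by 36 bases, 75 of 85 compared bases (88.2%) were the same. It lies in a coding exon of Khdc3, an oocyte gene, and no other window shown here was examined in this way.

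TCF7L2-alone loci were weak peaks. Fold enrichment, the ratio of signal at the summit to background, had a median of 2.96 and ranged from 2.41 to 8.76, while the other TCF7L2 peaks had a median of 3.72 and reached 42.0. The median summit of a TCF7L2-alone locus held 26 reads (exact 95% Poisson interval of 17 to 38.1), which places its fold enrichment between 1.97 and 4.28 by counting error alone. The weakest held 21 reads and the strongest held 79 reads, against a background of 8.14 reads. The loci were also narrow, with a median width of 253 bp against 511 bp in the other TCF7L2 peaks. Promoter and distal loci had the same median fold of 2.96.

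Strength was graded by −log10 of the p-value that the peak caller gave each summit, in classes with edges at 6, 10, and 15. Of the TCF7L2-alone loci, 1956 were below 6, 4864 lay between 6 and 10, 413 between 10 and 15, and 40 at 15 or more. Seen from the whole TCF7L2 list, the share without ARID1B or FOXP1 was 38.7% below 6, 22.6% between 6 and 10, 4.27% between 10 and 15, and 0.244% (95% Wilson interval of 0.179 to 0.332) at 15 or more. A TCF7L2 peak without either other TR was therefore almost always a weak one, which describes what the rule selected. The lists differ in depth, so presence and absence here depend on each list's threshold. The TCF7L2 list at E18.5 stands for 76.1 M reads, the FOXP1 list at E18.5 for 26.3 M, and the other lists for 57.3 to 80.7 M.

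**Figure D1:**
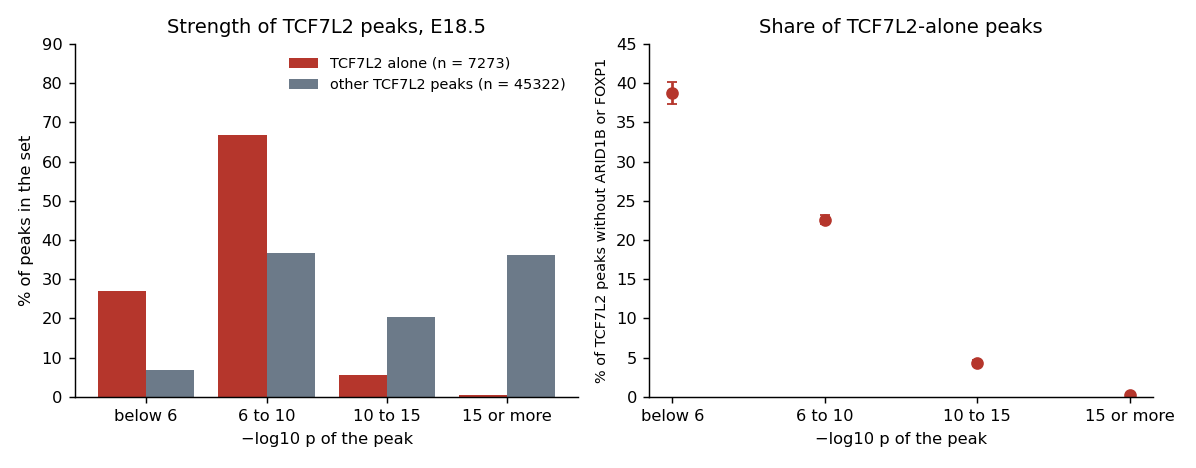
Strength of TCF7L2-alone peaks at E18.5. Left, bars give the percent of the 7273 TCF7L2-alone peaks and of the 45322 other TCF7L2 peaks in each class of −log10 p. Right, points give the percent of all TCF7L2 peaks in a class that were TCF7L2-alone, with 95% Wilson intervals, falling from 38.7% to 0.244%.

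The boundary of the rule is narrow. Of the TCF7L2-alone loci, 208 lay less than 20 bp from an ARID1B or FOXP1 peak, with a median fold of 2.96 and a median −log10 p of 6.84. On the other side, 249 TCF7L2 peaks overlapped such a peak by 20 bases or fewer, and their medians were also 2.96 and 6.84. The median gap from a TCF7L2-alone locus to the nearest ARID1B or FOXP1 peak was 578 bp. Within 500 bp there were 3390 loci (46.6%), and 1083 loci had no such peak within 5000 bp. Thus, many of the loci border peaks of ARID1B or FOXP1, and a smaller number stands well apart. TCF7L2 itself had peaks close to some of the loci. Another TCF7L2 peak lay within 500 bp of 2483 loci (34.1%), and in 2092 of those (84.3%) the neighbor, or 1 of the neighbors, had the higher fold. Because the loci are weak, with a median fold of 2.96 against 3.72, a stronger neighbor is partly set by the rule. The same shares were not computed for the other TCF7L2 peaks.

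Promoter loci, those overlapping the 2000 bp upstream of any start site, numbered 1839 (25.3%, 95% interval of 24.3 to 26.3). The share over all TCF7L2 peaks at E18.5 was 38.1%, and over the other TCF7L2 peaks it was 40.2%. The gap lay in the strongest class, which holds few TCF7L2-alone loci. At 15 or more, 70.4% of the other TCF7L2 peaks but 10 of 40 TCF7L2-alone loci (25%, 14.2 to 40.2) were at promoters. Between 6 and 10, the order was the opposite, with 25.1% (23.9 to 26.3) of TCF7L2-alone loci and 20.4% (19.8 to 21.0) of other peaks at promoters. Below 6 it was 25.3% against 18.4%, and between 10 and 15 the intervals overlapped (28.1% against 29.4%). Thus, the promoter share of TCF7L2-alone loci stayed near 25% in every class, while that of the other peaks climbed with strength. By the same rule, ARID1B-alone peaks at E18.5 were at promoters in 6.35% of 16706 cases, and FOXP1-alone peaks at E15.5 in 15.1% of 8971 cases.

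The strongest promoter locus was in the Gata6 promoter region on chromosome 18, in an exon of the non-coding 1010001N08Rik, with a fold of 5.80 (4.36 to 7.57 by counting error) and a TCF7L2 peak of 3.79-fold at E15.5. Gata6 encodes a zinc-finger factor of endoderm and heart. Next came a locus of 5.58-fold between the start sites of Cryba4 and Crybb1, a pair of lens crystallin genes, at chr5:112254240-112254764, with the nearest ARID1B or FOXP1 peak 12758 bp away. The third was a locus of 5.25-fold at chr5:41765493-41766157 by Nkx3-2, a homeobox gene of the axial skeleton. Both had TCF7L2 peaks at E15.5, of 4.83-fold and 4.21-fold. The locus of Usp46, a deubiquitinase gene, had 4.82-fold and no peak at E15.5, and an ARID1B or FOXP1 peak was only 48 bp away.

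Of the 8 other loci among the 12 strongest at promoters, 5 were at protein-coding genes. Hoxb6 had 4.71-fold and Otp, a homeobox gene of the hypothalamus, had 4.60-fold. Lmx1b, which specifies dopaminergic and serotonergic neurons, had 4.49-fold, as did Evx1, a homeobox gene of spinal interneurons, and Runx3, a gene of sensory neurons and lymphocytes. Of these 5, only the Runx3 locus had no TCF7L2 peak at E15.5. The remaining 3 were at promoters of non-coding RNA genes, namely the small nuclear RNA Gm22203 (4.60-fold), 8430419K02Rik (4.38-fold), and a cluster of RNAs that includes Gm27636 (4.38-fold), all with peaks at E15.5.

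Distal loci, which include sequence just downstream of a start site, numbered 5434. The strongest was in an intron of Esr1, the estrogen receptor α gene, at chr10:4997749-4998112, with a fold of 8.76 (6.96 to 10.9) at E18.5 and 8.49 at E15.5. No ARID1B or FOXP1 peak lay within 73019 bp of it. The second was the coding-exon locus of Khdc3, with 7.66-fold (5.99 to 9.67) at E18.5 and 6.92-fold at E15.5, and the intervals of the pair overlap. Then followed an intron of Tmem267 with 5.91-fold, the strongest of all loci without a TCF7L2 peak at E15.5, and an intron of Slc22a23 with 5.69-fold, which holds the core letters CTTTGAT.

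The rest of the 12 strongest distal loci had folds between 5.04 and 5.69. A coding exon of Nr4a2, a nuclear receptor of dopaminergic neurons, had 5.69-fold, and an ARID1B or FOXP1 peak lay 79 bp away. A coding exon of Cux2, a homeobox gene of upper-layer neurons, had 5.14-fold at E18.5 and 5.46-fold at E15.5. Pogz, a zinc-finger gene of chromatin, had 5.14-fold in a coding exon and 5.98-fold at E15.5. The others were introns of Peg10 (5.58-fold), Runx3 (5.25-fold), and Inpp5a (5.25-fold), a site 18104 bp from the start of Id1 (5.36-fold), and a UTR position in Tfap2b (5.04-fold), with the first 4 of these also present at E15.5.

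Distal TCF7L2-alone loci lay more often in exons than other distal TCF7L2 peaks. At the summit, 8.26% (7.56 to 9.02) were in coding sequence, 4.82% in UTRs, 3.79% in non-coding exons, 56.4% in introns, and 26.7% between genes. Among the other distal TCF7L2 peaks, 3.72% (3.50 to 3.96) were in coding sequence and 37.9% between genes. With strength held between 6 and 10, the coding share was 8.12% against 3.05%, a difference of 5.07 percentage points (95% Newcombe interval of 4.18 to 6.05), and the difference in the intergenic share was −10.22 points (−11.86 to −8.53). Coding exons held 0.812% of distal ARID1B-alone and 2.14% of distal FOXP1-alone peaks. All intervals given here describe counting error alone, and nearby peaks are not independent of each other.

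**Figure D2:**
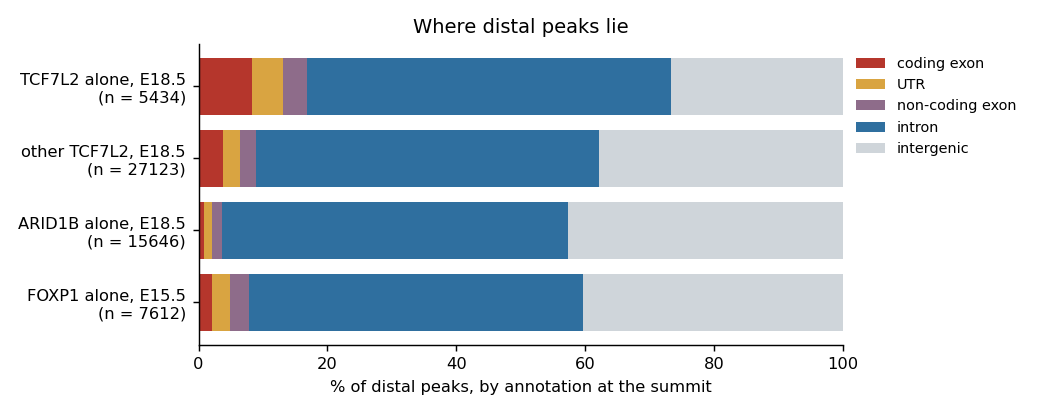
Annotation at the summit of distal peaks. Each bar gives the percent of distal peaks of 1 set in coding exons, UTRs, non-coding exons, introns, and intergenic sequence. TCF7L2-alone loci have the largest coding-exon segment of the 4 sets, 8.26%, and the smallest intergenic one, 26.7%.

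The coding-exon loci spread over 420 genes, and 10 genes held at least 3. Cux2 held 5, and Apc2, a relative of the Wnt antagonist Apc, Celsr2, an adhesion receptor of planar cell polarity, and Prr12 held 4 each. These genes were named after their counts were seen. Distal loci were also closer to start sites, with a median distance of 6242 bp against 11053 bp in the other distal TCF7L2 peaks, and between 6 and 10 of 6104 bp against 11344 bp. Over 100 kb from any start site were 92 distal loci (1.69%), against 4.04% of the other distal TCF7L2 peaks, and between 6 and 10 the shares were 1.56% and 4.17%. Median GC content was 60.5% in the windows of coding-exon loci and 52.5% in those between genes.

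TCF7L2 was rarely seen at these loci 3 days earlier. A TCF7L2 peak at E15.5 overlapped 665 TCF7L2-alone loci (9.14%, 95% interval of 8.50 to 9.83), against 56.3% of all TCF7L2 peaks and 63.9% of the other TCF7L2 peaks at E18.5. The TCF7L2 list at E15.5 was not used to choose the loci, but the ARID1B and FOXP1 lists of E15.5 were. The share was 14.1% without the FOXP1 list of E15.5 and 18.1% without either list of E15.5. Because weak peaks are called less often in a second list, the comparison was made at like strength. Below 6, 3.48% of TCF7L2-alone loci and 16.1% of other peaks were present at E15.5, between 6 and 10, 8.55% and 32.3%, and between 10 and 15, 36.6% and 74.4%. At 15 or more, 30 of 40 loci (75%) and 99.1% of other peaks were present. The difference was −23.8 percentage points (−24.8 to −22.7) between 6 and 10 and −37.8 points (−42.4 to −33.0) between 10 and 15.

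The gap remained when the number of summit reads was the same, a view chosen after the classes were seen. At exactly 26 reads, 63 of 1108 TCF7L2-alone loci (5.69%) and 584 of 2647 other peaks (22.1%) had TCF7L2 at E15.5. With width also held under 300 bp, the shares were 4.12% (2.95 to 5.74) and 18.3% (16.4 to 20.4). At 33 reads, they were 32.4% and 65.0%. The share also rose with the number of ARID1B and FOXP1 lists that a peak met. Among peaks between 6 and 10, TCF7L2 was present at E15.5 in 8.55% of those that met no list, 18.1% of those that met 1, 25% at 2, 37.3% at 3, and 54.5% at all 4. Median width rose alongside from 256 to 381 bp and median fold from 3.06 to 3.28, and their part in the gradient was not tested.

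**Figure D3:**
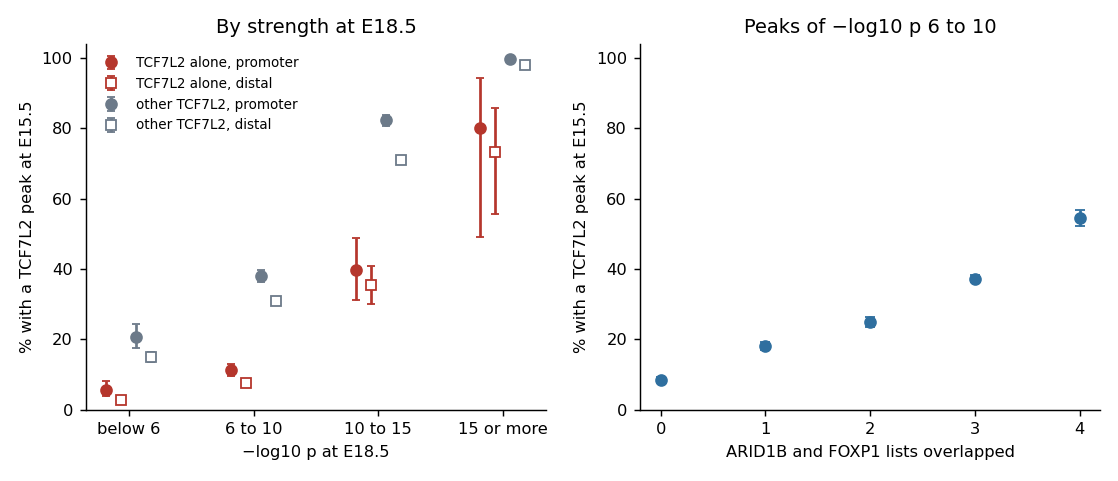
TCF7L2-alone loci with a TCF7L2 peak at E15.5. Left, percent present at E15.5 by −log10 p at E18.5 for promoter and distal loci, TCF7L2 alone or other, with 95% Wilson intervals; in the 6 to 10 class promoter loci reach 11.2% and other promoter peaks 38.1%. Right, the same percent among peaks of −log10 p 6 to 10 by the number of ARID1B and FOXP1 lists overlapped, from 8.55% to 54.5%.

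Promoter loci were present at E15.5 more often than distal ones, 218 of 1839 (11.9%, 10.5 to 13.4) against 447 of 5434 (8.23%, 7.52 to 8.99). The other TCF7L2 peaks had the same order, so it was not particular to these loci. At −log10 p between 6 and 10, 38.1% of other promoter peaks and 30.8% of other distal peaks were present at E15.5. In that class, the shares of promoter and distal TCF7L2-alone loci were 11.2% and 7.68%. By distance to the other TRs, the intervals overlapped, with 9.17% (8.25 to 10.2) present among loci within 500 bp of an ARID1B or FOXP1 peak and 8.22% (6.73 to 10.0) among those over 5000 bp away. The median fold of the 665 loci was 3.17 at E18.5 and 3.47 at E15.5, where the highest reached 13.9. The list at E15.5 is shallower, at 60.1 M reads, and its weakest peak has 2.64-fold. A fold above 2.64 was reached by 6330 TCF7L2-alone loci (87.0%) at E18.5, and 9.92% of those were present at E15.5.

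Both stages gave TCF7L2-alone loci. The same steps at E15.5 found 1107 TCF7L2-alone peaks, of which 753 (68.0%, 65.2 to 70.7) had a TCF7L2 peak at E18.5, against 95.9% of the other TCF7L2 peaks at E15.5. Strength was not held alike in this comparison, and the list at E18.5 is the deeper one, with 76.1 M against 60.1 M reads. In the other direction, 547 TCF7L2-alone loci of E18.5 (7.52%) met a peak that was TCF7L2-alone at E15.5 as well. The rule also excluded ARID1B and FOXP1 peaks of E15.5. When only the 2 lists of E18.5 were used for exclusion, 14323 TCF7L2 peaks remained. At like strength, a comparison added after seeing the data, 15.1% (14.4 to 15.8) of these and 36.3% of the other TCF7L2 peaks were present at E15.5 between 6 and 10, a difference of −21.3 points (−22.4 to −20.1). Between 10 and 15, the shares were 50.7% and 76.8%.

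Among the strongest loci without TCF7L2 at E15.5, beside those at Tmem267 and Tfap2b, were loci in introns of Ass1, a urea-cycle enzyme gene (4.82-fold), and of Usp46 (4.82-fold). The strongest with TCF7L2 at both stages were those of Esr1, Khdc3, Gata6, Slc22a23, and Nr4a2.

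The TCF core, CTTTGAT or its reverse complement, was found in the 200 bp around the summit of 238 TCF7L2-alone loci (3.27%, 2.89 to 3.71), against 2.58% of all TCF7L2 peaks at E18.5. The share was 3.35% in ARID1B-alone peaks at E18.5, 2.89% in FOXP1-alone peaks at E15.5, and 2.63% in windows 2000 bp to either side of the same summits. Relative to those flanks, the difference was 0.646 points (0.175 to 1.146), and relative to ARID1B-alone peaks −0.080 points (−0.558 to 0.428). GC content was not held alike in the latter comparison, with a median of 53.5% in TCF7L2-alone and 44.5% in ARID1B-alone windows. Around the summits there was no sharp peak of core matches. Bins of 50 bp within 50 bp of the summit held a match in 0.914% of loci on average, and bins beyond 500 bp in 0.703%, a ratio of 1.30. The ratio was 0.881 in the other TCF7L2 peaks, 0.961 in ARID1B-alone peaks, and 0.925 in FOXP1-alone peaks. In ARID1B-alone peaks, the bins beyond 500 bp already held a match in 0.960% of cases.

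The longer TCF7L2 consensus separated the sets further, though it was rare. It matched 26 TCF7L2-alone windows (0.357%, 0.244 to 0.523), of which 13 also held the core, 23 were distal, and 5 had TCF7L2 at E15.5. The share was 0.192% in the other TCF7L2 peaks, 0.126% in ARID1B-alone peaks, 0.111% in FOXP1-alone peaks, and 0.131% in the flanking windows. The difference from the flanks was 0.227 points (0.092 to 0.399), and from other TCF7L2 peaks between 6 and 10 it was 0.197 points (0.053 to 0.406). The consensus of LEF1, a TCF of the same family, matched 27 windows (0.371%), and 13 windows held both. Thus, matches were more frequent than beside the loci, but over 99% of the loci held no consensus match, including the strongest ones printed above. A match is a description of letters and not evidence of binding by itself.

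A stricter view kept only peaks of −log10 p 15 or more in all lists, so that a weak ARID1B or FOXP1 peak no longer counted. It left 641 TCF7L2 peaks without a strong partner, 40 of them TCF7L2-alone by the first rule, with a median fold of 4.82. The core was present in 47 of these 641 (7.33%, 5.56 to 9.61) and in 1.75% of the 15752 other TCF7L2 peaks of 15 or more, a difference of 5.59 points (3.80 to 7.88). Among distal peaks, it was 37 of 345 (10.7%) against 3.19%. The TCF7L2 consensus was present in 11 (1.72%) against 0.165%, all 11 of them distal. Since the other peaks were stronger, with a median fold of 6.35, the core was also compared between 15 and 20, a choice made after seeing the data, and was present in 6.65% against 2.01%, a difference of 4.64 points (2.59 to 7.41). At promoters, this stricter set reached 1.24% of all protein-coding genes. Wnt feedback and target genes had 2 of 24, Sp5, a direct target of Wnt signals, with 10.8-fold, and Notum with 5.47-fold. Wnt ligands had 1 of 19, Wnt7b with 4.71-fold, and receptors and β-catenin signalling genes had 0 of 15 and 0 of 14. The radial glia, interneuron, oligodendrocyte, and astrocyte lists, of 8 to 12 genes, also had 2 each, with Gfap the strongest at 5.80-fold. Cortical neuron genes had 1 of 11, Cux2 with 5.04-fold, erythroid genes had 1 of 7, Epor with 5.04-fold, and the other 8 lists had 0. At every one of these genes, the stricter set's peaks overlapped an ARID1B or FOXP1 peak of less than 15. With E15.5 peaks of 15 or more only, 172 of the 641 (26.8%, 23.5 to 30.4) were present at E15.5, against 75.7% of the others. With E15.5 peaks of any strength, the shares were 92.8% and 99.3%.

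**Figure D4:**
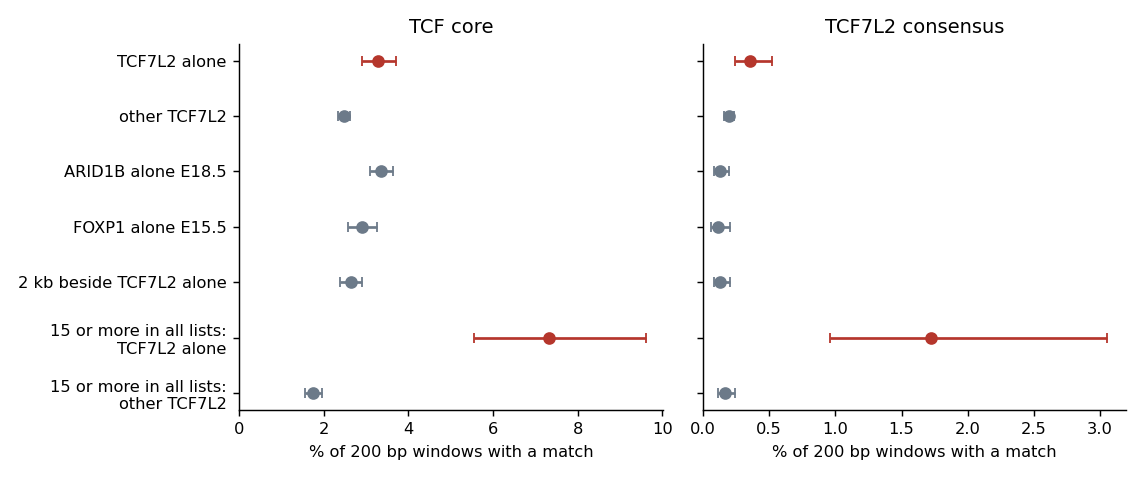
Motif matches in 200 bp windows. Points give the percent of windows with the TCF core (left) or the TCF7L2 consensus (right), with 95% Wilson intervals, for TCF7L2-alone loci, the comparison sets, windows 2000 bp beside the loci, and peaks of −log10 p 15 or more in all lists. The core reaches 3.27% in TCF7L2-alone loci and 7.33% in TCF7L2 peaks of at least 15 without a strong ARID1B or FOXP1 peak.

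The loci were moderately rich in GC. Median GC content was 53.5% in TCF7L2-alone windows, 55.0% in other TCF7L2 windows, 44.5% in ARID1B-alone windows, and 49.5% in the flanks. Between 6 and 10 the order of the first pair was the opposite, with 54.0% in TCF7L2-alone and 51.5% in other windows. A CpG observed-to-expected ratio of 0.6 or more, a usual mark of CpG islands, was reached by 11.7% of TCF7L2-alone windows and 34.6% of the others, but by 12% and 11.9% between 6 and 10. Promoter loci reached it in 18.1% of cases, against 66.5% of other promoter peaks. Loci present at E15.5 reached it in 26.9% and those absent in 10.2%. Strength was not held alike there, and loci of −log10 p 10 or more reached it in 24.9%. Repeats covered most of a window in 2.91% of loci, 1.35% of other TCF7L2 peaks, and 11.9% of flanking windows, and between 6 and 10 in 2.78% of loci and 1.80% of other peaks.

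TCF7L2-alone loci were unevenly spread along the genome. Of 4935 windows of 500 kb, 2046 (41.5%) held a locus. At least 20 loci each were found in 17 windows, 523 in all or 7.19% of the loci. These windows, which were chosen by their loci, also held 929 other TCF7L2 peaks, 2.05% of those, so that 36% of their TCF7L2 peaks were TCF7L2-alone, against 13.8% over the autosomes. The densest was chr17:30500001-31000000, with 85 loci in and around Dnah8, an axonemal dynein gene, and Btbd9, and 7 of them (8.24%) were present at E15.5, near the 9.14% of all TCF7L2-alone loci. All lists had peaks there, among them 191 TCF7L2 peaks at E18.5 and 112 ARID1B peaks at E15.5. Peaks were called without a local background, and the part of local read depth in such clusters was not tested. A window on chromosome 18 held 44 loci within 81.2 kb, with 10 at E15.5, and 1 on chromosome 1 held 30 within 62.5 kb around Mroh2a and Hjurp.

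Hox clusters accounted for 3 of the 8 densest windows. The Hoxa window on chromosome 6 held 40 loci, 23 of them at promoters and 12 present at E15.5. The Hoxd window on chromosome 2 held 34, with 17 at promoters and 9 at E15.5, and the Hoxb window on chromosome 11 held 30, with 15 at promoters and 5 at E15.5. The Hoxa, Hoxd, and Hoxb windows had 67, 55, and 54 TCF7L2 peaks at E18.5 in all. The remaining 2 windows were at Gse1 on chromosome 8, with 29 loci among 133 TCF7L2 peaks, and around 2310011J03Rik and Tcf3 on chromosome 10, with 32 among 103. Without the 8 windows, 6949 loci remained, 25.2% at promoters and 8.79% present at E15.5. Among chromosomes, the TCF7L2-alone share of TCF7L2 peaks ranged from 10.3% on chromosome 3 to 17.7% on chromosome 17, which dropped to 15.4% without its dense window.

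Among genes, Btbd9 and Dnah8 had the most promoter loci, 7 each, followed by Gata6 and Hoxa9 with 6 each. By nearest start site, the genes with most distal loci were Dnah8 with 32, Gse1 with 26, Cux2 with 22, AC102232.1 with 18, and Mroh2a with 17. In all, 1263 of 20780 autosomal protein-coding genes (6.08%) had a TCF7L2-alone locus at a promoter, and this share is the background for the lists that follow. Of these genes, 1097 (86.9%) also had an ARID1B or FOXP1 peak elsewhere in a promoter window, against 64.6% of all protein-coding genes, and 166 had none in any of the 4 lists. Another TCF7L2 promoter peak, 1 that met ARID1B or FOXP1, was found at 62.0% of all protein-coding genes. Genes with a locus had a median of 5 annotated start sites against 3 for all genes, and the part of this difference in which genes had a locus was not tested.

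Wnt ligand genes were the list with the largest share. Of 19 ligand genes, 9 (47.4%) had a TCF7L2-alone promoter locus, against the background of 6.08%, and their median number of start sites was 2. All were weak, with Wnt7b at 3.39-fold (2.33 to 4.80), Wnt2 at 3.28-fold, Wnt10a, Wnt11, and Wnt2b at 3.06-fold, and Wnt5b at 2.85-fold. None of these 6 had a TCF7L2 peak at E15.5. An ARID1B or FOXP1 peak lay 29 bp from the Wnt2b locus, 31 bp from the Wnt2 locus, 38 bp from the Wnt10a locus, and 182 bp from the Wnt7b locus. When a peak within 500 bp counted as shared, 3 ligand genes were left, and the share of all protein-coding genes was then 2.69%. A TCF7L2 promoter peak that met ARID1B or FOXP1 was found at 9 of the 19 ligand genes (47.4%), against 62.0% of all protein-coding genes.

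Other parts of the pathway had fewer. Wnt feedback and target genes had 4 of 24, namely Nkd1 (3.17-fold) and Notum (2.85-fold), which encode Wnt antagonists, Lgr6 (3.06-fold), an R-spondin receptor gene, and Axin2 (2.74-fold), a scaffold of the β-catenin destruction complex. Another TCF7L2 promoter peak was found at 23 of the same 24 genes and at all 15 receptor and 14 β-catenin signalling genes, against 62.0% of all protein-coding genes. Among receptors, Lrp6 was the only 1 of 15, with 2.96-fold, and among β-catenin signalling genes Bcl9l, a coactivator, was the only 1 of 14, with 3.83-fold. Corepressor genes had 2 of 9, Tle2 with 3.39-fold and a peak at E15.5, and Tle6 with 3.28-fold. For receptors and signalling genes, the shares of 6.67% and 7.14% were close to the background.

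**Figure D5:**
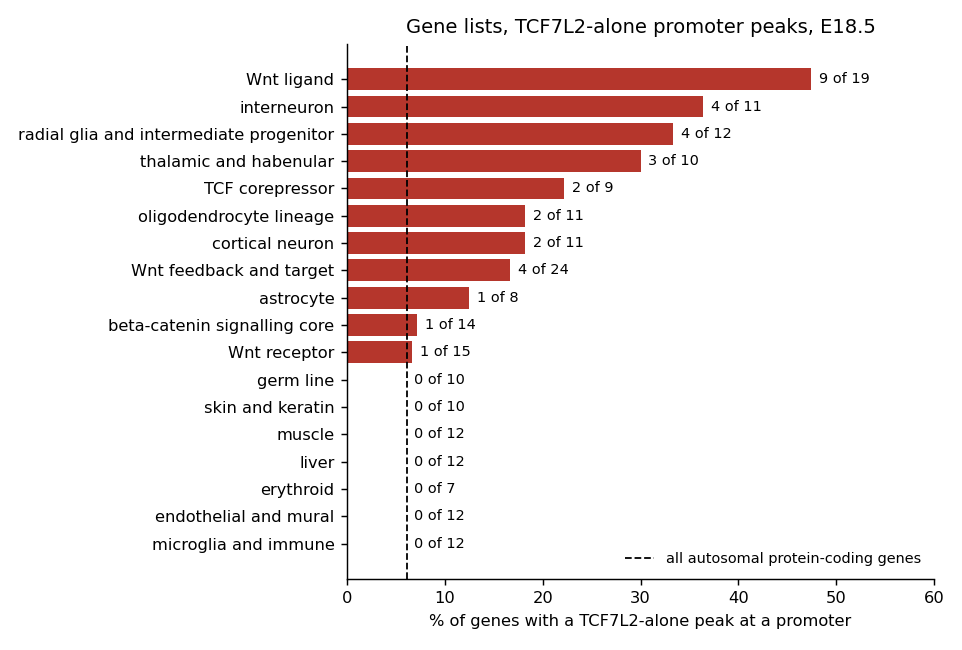
Gene lists and TCF7L2-alone promoter loci at E18.5. Bars give the percent of the autosomal protein-coding genes of each list with at least 1 TCF7L2-alone peak at a promoter, numbers give the counts, and the dashed line is the 6.08% of all autosomal protein-coding genes. The bar of Wnt ligand genes reaches 47.4%, and the 7 lists of immune, vascular, and non-neural genes are at 0.

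Genes of cortical cell types were touched in part. Radial glia and intermediate progenitor genes had 4 of 12, with Pax6 at 3.61-fold, Emx2 at 3.39-fold, and Hes5 and Notch1 at 3.06-fold. Cortical neuron genes had 2 of 11, among them Cux2 at 2.96-fold, and all 11 had another TCF7L2 promoter peak, as did 62.0% of all protein-coding genes. Interneuron genes had 4 of 11, with Lhx6 at 3.28-fold, Dlx6 and Nkx2-1 at 3.17-fold, and Gad1 at 3.06-fold. The Lhx6 locus stood 30721 bp from any ARID1B or FOXP1 peak. Oligodendrocyte genes had 2 of 11, Nkx2-2 at 3.39-fold and Cnp at 2.74-fold, and astrocyte genes 1 of 8, Aldoc at 3.06-fold.

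Thalamic and habenular genes, the best known setting of TCF7L2 in the forebrain, had 3 of 10. Olig3 had 3.61-fold, and Gbx2 and Pou4f1 had 3.50-fold and were also present at E15.5, with 3.37-fold and 4.00-fold. Lists of other cell types and tissues were set beside these, although immune and vascular cells also live in the cortex. Of 75 genes of immune, vascular, erythroid, liver, muscle, skin, and germ line lists, 0 had a TCF7L2-alone promoter locus and 14 (18.7%) had another TCF7L2 promoter peak, none of them among 12 liver genes, against 62.0% of all protein-coding genes.

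Families of developmental regulators were looked at after their frequency had been seen, so these counts are descriptions of what stood out. Hox genes, which pattern the body axis behind the forebrain, had a TCF7L2-alone promoter locus in 20 of 39 cases (51.3%), Gata genes in 3 of 5, Tbx genes in 5 of 12 (41.7%), Nkx genes in 5 of 14 (35.7%), Fox genes in 12 of 41 (29.3%), and Sox genes in 3 of 18 (16.7%). Among families of other kinds, ribosomal protein genes (Rpl and Rps) had 9 of 72 (12.5%), Zfp genes 11 of 385 (2.86%), keratin genes 1 of 53 (1.89%), and olfactory receptor genes 0 of 1127. Among Hox genes, Hoxb6 was followed by Hoxa2 and Hoxb3 at 3.94-fold and by Hoxa13, Hoxa9, and Hoxc6 at 3.61-fold. Of these 6, Hoxb6, Hoxa2, Hoxa13, and Hoxc6 were present at E15.5. Tbx4, a limb gene, had 5 promoter loci, the strongest with 4.27-fold.

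At 155 protein-coding genes, no promoter peak other than TCF7L2-alone loci was found in the TCF7L2 list at E18.5 or in any of the 4 ARID1B and FOXP1 lists. By strength, they began with Cryba4, Crybb1, and Hoxb6. Among the next were Prdm14, a germ line regulator, with 4.16-fold, Hs3st6 with 4.05-fold, Hoxa2 and Hoxb3, and Dbx1, a homeobox gene of ventral neural progenitors, with 3.83-fold. At E15.5, a TCF7L2 peak was present at the strongest locus of each of these genes but Hoxb3. These genes were named after their values were seen.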

How the data were processed

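Peaks came from ChIP-seq of wild-type mouse cortex (12 ChIP and 12 input libraries, single-end reads). Per the submitters' processing notes and the methods, the authors aligned reads with BWA 0.7.15 to mm10, merged the reads of 2 biological replicates per TR and stage, and called narrow peaks with MACS2 2.2.7 against input at a q-value of 0.01, with reads extended to 200 bp and no local background. The 6 lists are filed under first replicates and were taken to be these merged calls. The deposited lists give the ratio of summit signal to background (fold enrichment, with 1 added to both), and the authors' −log10 p-value and −log10 q-value. How duplicate reads were handled is not stated in these sources.

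Everything else was computed from the 6 lists with Python 3.11.15, pandas 2.3.3, and statsmodels 0.14.6. A peak was shared if it overlapped another by 1 base. Background and summit reads were recovered from the pairs of fold and p-value, to within 0.02 of a whole read at E18.5, and each depth is that of whichever library was smaller, ChIP or input. Start sites, exons, and UTRs were those of GENCODE vM21, and sequence was RefSeq GRCm38. Matches to the core and to the consensus sequences of the study's motif table were sought on either strand within 200 bp windows centered on summits. ARID1B-alone and FOXP1-alone peaks overlap no peak of the other lists but those of their own TR. Intervals are 95% Wilson intervals for shares, Newcombe intervals for differences, and exact Poisson intervals for reads, and cover counting error only. With 1 list per condition no p-value was computed. Steps were tested on simulated data.

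Genes were named by rule: those at the 12 strongest promoter and 12 strongest distal loci, those with most loci, up to 6 of each of 18 gene lists, those at the strongest loci with a consensus match within 50 bp of the summit, and the 5 strongest with and without TCF7L2 at E15.5. The loci, lists, and rule were chosen with earlier results of these data known. Alternatives were other thresholds, overlaps, exclusion lists, promoter definitions, and windows. Some named genes are not reported here, and no sequence of chromosome 18 is printed. Peaks off the autosomes were left out of the comparisons.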

Additional observations from a re-analysis of the deposited data

Results flagged for a closer look

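Outside the autosomes, the TCF7L2 list at E18.5 also held peaks without an ARID1B or FOXP1 peak, which no comparison above used. There were 45 of 565 on chromosome X, 1 of 9 on chromosome Y, and 13 of 46 on unplaced sequences, and they are given as counts only.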

How the results depend on the processing

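The number of TCF7L2-alone loci, 7273, was 40 with the TCF7L2 list at −log10 p of 15 or more, 641 with all lists at 15 or more, 3883 when an ARID1B or FOXP1 peak within 500 bp counted as shared, and 14323 with only the E18.5 lists for exclusion. The share present at E15.5, 9.14%, was 75%, 26.8% (E15.5 list at 15 or more too), and 18.1% under the first, second, and last of these, 11.2% when overlap meant 50% of the shorter peak, 0.440% with only E15.5 peaks at 15 or more, and 7.33% with summits within 250 bp. Leaving out 1 exclusion list gave 9.93% (ARID1B at E18.5 left out), 10.4% (ARID1B at E15.5), and 14.1% (FOXP1 at E15.5). The promoter share, 25.3%, was 46.2% with all lists at 15 or more, 21.5% with the 500 bp margin, 27.5% with the E18.5 lists only, 27.6% without the FOXP1 E15.5 list, 17.8% for 1000 bp upstream, 41.8% for 2000 bp on either side, and 19.9% for protein-coding start sites. The core share, 3.27%, was 5% (2 of 40 loci) with the TCF7L2 list at 15 or more, 7.33% with all lists at 15 or more, and 1.69% in windows of 100 bp. In its place the TCF7L2 consensus gave 0.357% and the LEF1 consensus 0.371%. Wnt ligand genes with a promoter locus, 9 of 19, were 0 and 1 with the TCF7L2 list and with all lists at 15 or more and 3 with the 500 bp margin, where 0.0481%, 1.24%, and 2.69% of all protein-coding genes had one, against 6.08%; these counts were added after seeing the data. The other alternatives, including leaving out the 8 densest windows, kept shares within the 95% interval and counts within 1.5 times.

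No paired analysis was possible because there is 1 list for each TR and stage, taken to be that of merged replicates, and for the same reason no replicate could be left out. At the median summit of 26 reads, counting error spans folds of 1.97 to 4.28, so absence of a weak peak from a list is not absence of binding.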
